A study of Mus musculus with 3 samples.

Results

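The genes described here encode the transferases that attach glutathione, a sugar or sulfate to other molecules in mouse kidney. They were chosen by gene symbol, not by their values: every gene with a symbol of the *Gst*, *Mgst*, *Ugt* or *Sult* families on the array's annotation was taken, provided that its probe set carried 1 symbol. This gave 46 of the 18193 genes with a named probe set, namely 20 cytosolic glutathione transferases, 3 microsomal ones, 10 UDP-glycosyltransferases and 13 sulfotransferases. Kidney RNA came from male C57BL/6J mice aged 16 weeks, on 1 array for uninephrectomy alone and 2 arrays for cardio-renal syndrome. Mice of both groups had lost 1 kidney, and the other was collected 6 weeks later. The cardio-renal mice also had the abdominal aorta constricted below the branching of the renal arteries, 2 weeks before the kidney was removed. No transgene or deleted allele was named for either group. The labels did not say how many mice an array stood for, and the design text mentioned sham operations without tying one to a sample.

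Conjugation makes a lipophilic drug, toxin, steroid or oxidised lipid more soluble, so that transporters can move it into urine or bile. Glutathione transferases join glutathione to electrophiles, and some also reduce lipid peroxides. UDP-glucuronosyltransferases of the Ugt1 and Ugt2 families transfer glucuronic acid to steroids, bile acids and phenols, whereas the Ugt3 family is known for using other sugars, so that its members are glycosyltransferases rather than glucuronosyltransferases in the strict sense. Sulfotransferases transfer sulfate from the activated donor PAPS to phenols, catecholamines and steroids. In kidney these enzymes are best known from the proximal tubule, and many of them differ in level between male and female mice.

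The values are MAS5 signals, in which a probe set's brightness is given on a linear scale after each array has been scaled to the same mean. A signal depends on the probe sequences, so it was compared between arrays and not between genes. Differences are given as log2(signal + 28.8) of a cardio-renal array minus that of the uninephrectomy array. A gene was kept for the comparison when its mean on this scale was at least 7.01, the median of all probe sets, and 11146 genes were kept. Median signals lay between 100.1 and 105.9 on the 3 arrays. The kidney markers were present on all 3 arrays, with the sodium-phosphate cotransporter gene *Slc34a1* at 19328, 16946 and 19804 and uromodulin, *Umod*, at 28134, 26237 and 28669. Over 7 kidney markers the summed signal was 91737 for the uninephrectomy array and 87356 and 94146 for cardio-renal arrays 1 and 2. The summed signal of 6 heart markers was 156.6, 1747 and 1193 in the same order, with 3 of them below the filter, and the part of heart RNA in the values below was not tested. Of 7 liver markers, *Apoa1*, *Cps1* and *Tat* were below the filter, and albumin, *Alb*, had signals of 216.9, 775.3 and 337.9. The other kept liver markers did not follow *Alb*. *Apoa2* (447.6, 389.3 and 378.2) and *Fgb* (195.5, 161.9 and 136.2) were lower in both cardio-renal arrays. *Ttr*, at 13426, 12522 and 14321, was lower in array 1 and higher in array 2. The 4 adrenal cortex markers were all below the filter, with summed signals of 208.2, 239.5 and 196.1. In a homogenised kidney, fewer cells of a type and less RNA per cell cannot be told apart.

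No conjugating-enzyme gene was shown to differ between cardio-renal syndrome and uninephrectomy alone. Of the 46, 29 were kept by the filter, and 0 of these 29 passed limma's test after Benjamini-Hochberg adjustment over all 11146 genes, where percent called was also 0. Their adjusted p rounded to 1 in limma's fit for every one of the 29. The only member with an unadjusted limma p under 0.05 was the alpha-class gene *Gsta3*, at 0.029; 1 of 29 is 3.45%, against 2.51% of all genes. In neither direction was a member 2-fold or more from the control in both cardio-renal arrays, a size reached by 0.135% of all genes upward and by 0.0538% downward. Only the difference between the cardio-renal arrays gave the fit its 1 residual degree of freedom, and the fit assumed that the single uninephrectomy array varied like them.

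The families are described by counts and medians beside the same over all genes. Of the 29 kept genes, 13 were higher than uninephrectomy alone in both cardio-renal arrays, or 44.8%, against 30.6% of all genes kept. The 4 that were lower in both, *Gstm3*, *Gstm4*, *Sult1b1* and *Sult1c2*, made 13.8%, against 29.8%, while 12 had opposite signs in the cardio-renal arrays, or 41.4%, against 39.6%. In array 1 taken alone 18 were higher, or 62.1% against 51.6% of all genes, and in array 2 taken alone 9 were lower, or 31% against 50.7%. Of the 13 that were higher in both, 11 were glutathione transferases and 2 were sulfotransferases. All 6 kept UDP-glycosyltransferase genes had opposite signs in the arrays, except that after quantile normalization *Ugt3a1* was lower in both, at -0.0017 in array 2. The median mean difference was 0.22 for the 18 glutathione transferases, -0.18 for the 6 UDP-glycosyltransferases and 0.04 for the 5 sulfotransferases, beside -0.0047 over all genes kept. Both cardio-renal arrays were set against the same single control array, so a sign shared by both can come from that array.

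**Figure D1:**
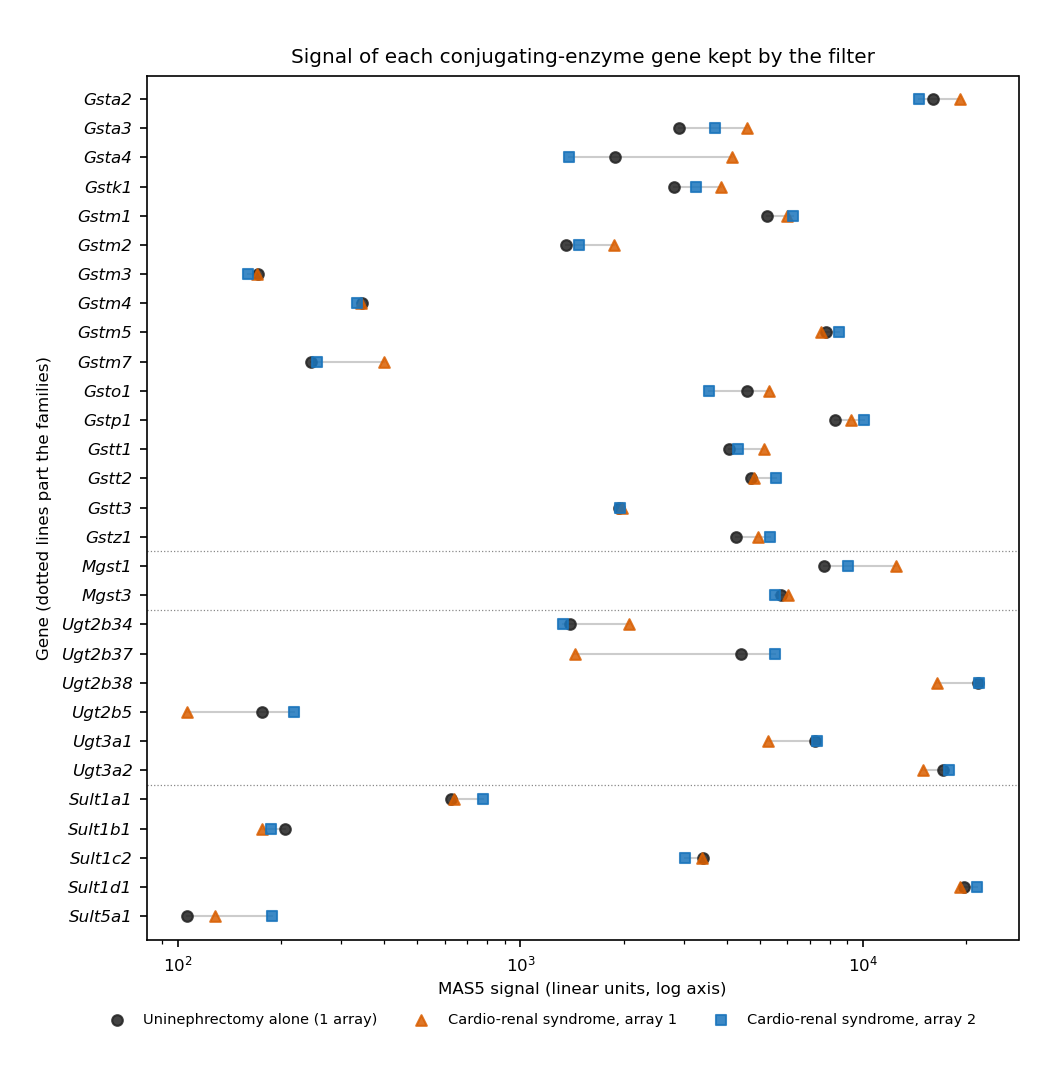
MAS5 signal (log axis) of the 29 kept genes on the uninephrectomy array (circles) and on cardio-renal arrays 1 (triangles) and 2 (squares), with a grey line spanning the 3 values of a gene. Most spans are short, and those of *Ugt2b37* (1440 to 5525) and *Gsta4* (1389 to 4141) are the longest.

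The alpha-class glutathione transferases differed in which array moved. *Gsta4*, which conjugates hydroxynonenal and other products of lipid peroxidation, had a signal of 1884 with uninephrectomy alone, of 4141 in cardio-renal array 1 and of 1389 in array 2. It was thus high in array 1 only, and the control lay between the cardio-renal arrays. Its log2 differences were 1.12 and -0.43, a mean of 0.35 ± 1.10 (SD, n = 2), and its cardio-renal signals were 2.94-fold apart on the log2 scale with the offset. *Gsta3*, which conjugates the epoxide of aflatoxin, had signals of 2901, 4582 and 3695. Both cardio-renal arrays lay above the control, with log2 differences of 0.65 and 0.35, a mean of 0.50 ± 0.22 (SD, n = 2; limma standard error 0.19). The second *Gsta3* probe set, with signals of 715.4, 1075 and 713.8, was higher in array 1 alone. *Gsta2*, an alpha-class enzyme with peroxidase activity, had signals of 16031, 19222 and 14526, with the control again between the cardio-renal arrays. A probe set shared by *Gsta1*, *Gsta2* and *Gm3776*, which is not counted among the 46 genes, had signals of 10344, 16242 and 8904 and the same order of arrays as *Gsta2*.

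The promoter of *Gsta3* is shown because alpha-class genes are textbook targets of the stress-responsive factor NRF2 and because this gene had the lowest limma p among the members. The window runs from 250 bases before to 50 bases after the start site, is taken from RefSeq (GRCm38.p6, chr1:21240335-21240634, plus strand) and has 1 match to the antioxidant response element core TGACNNNGC in capitals, starting 121 bases before the start site.
Gsta3: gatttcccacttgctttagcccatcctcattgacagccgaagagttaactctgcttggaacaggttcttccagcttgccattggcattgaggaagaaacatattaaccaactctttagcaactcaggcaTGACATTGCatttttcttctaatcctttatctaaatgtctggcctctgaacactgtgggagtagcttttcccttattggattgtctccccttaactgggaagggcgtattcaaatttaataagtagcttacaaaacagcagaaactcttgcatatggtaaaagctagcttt
Such a core, searched on both strands, was held by 12.4% of the 32851 promoters in the table. Among 53 promoter windows of the 41 members that the table matched, 4 held it, or 7.55%, one each for *Gsta3*, *Gstm5*, *Gstm7* and *Mgst1*. The dioxin response element core GCGTG was held by 11 of the 53 windows, or 20.8%, against 32.4% of all promoters, and in the *Gstm5* window 1 of its matches overlaps the antioxidant core. The STAT5 motif TTCNNNGAA was held by 4 windows, or 7.55%, against 8.3%, and the full palindromic androgen and glucocorticoid response element by 0 of 53 against 0.00913%. These matches describe letters in the windows and not occupied sites.

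Among the mu-class genes, *Gstm1*, a broad-range conjugating enzyme, had signals of 5235, 6002 and 6264. Both cardio-renal arrays were above the control and close together, with log2 differences of 0.20 and 0.26 (mean 0.23 ± 0.043, SD, n = 2). Its 3 other probe sets were also higher in both arrays, by 0.18 to 0.63 in array 1 and by 0.21 to 0.31 in array 2. *Gstm2* had signals of 1362, 1876 and 1484, highest in array 1, with a mean difference of 0.29 ± 0.24 (SD, n = 2). *Gstm7* had signals of 244.9, 400.5 and 255.2, so that array 2 was close to the control. *Gstm5* (7815, 7535 and 8524), *Gstm4* (343.6, 341.2 and 333.8) and *Gstm3* (171.1, 170 and 160.3) had log2 differences between -0.08 and 0.12. The 7 mu-class members are neighbours on chromosome 3 and are close copies of each other, and the probe sets used for *Gstm1* and *Gstm3* are of a design that can match more than 1 transcript. Whether the probe sets separate the copies was not tested. In the order of the chromosome, the array 1 differences of the 6 kept were -0.052 for *Gstm5*, 0.65 for *Gstm7*, -0.0081 for *Gstm3*, 0.45 for *Gstm2*, 0.20 for *Gstm1* and -0.0092 for *Gstm4*. Genes that were higher in array 1 and genes near 0 were thus interspersed along the cluster. *Gstm6*, between *Gstm7* and *Gstm3*, was below the filter, with signals of 27.3, 73.6 and 75.3.

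Among the remaining soluble transferases, *Gstk1*, *Gstp1* and *Gstz1* were higher than the control in both cardio-renal arrays, by less than 2-fold in each. *Gstk1*, the kappa-class enzyme of mitochondria and peroxisomes, had signals of 2798, 3860 and 3243 and log2 differences of 0.46 and 0.21 (mean 0.34 ± 0.18, SD, n = 2). *Gstp1*, the pi-class enzyme, had signals of 8265, 9232 and 10060 and a mean difference of 0.22 ± 0.087. *Gstz1*, which isomerises maleylacetoacetate in tyrosine breakdown, had signals of 4258, 4937 and 5340 and a mean difference of 0.27 ± 0.08. For these 3 genes the control lay below both cardio-renal arrays, and the mean difference exceeded the gap between them. In either direction, the mean difference exceeded that gap for 7 of the 29 kept genes, or 24.1%, against 37.5% of all genes kept. The others were *Gsta3*, *Gstm1* and *Gstt3*, higher than the control in both cardio-renal arrays, and *Sult1b1*, lower in both.

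The theta-class genes, whose enzymes act on small halogenated compounds, were on average close to the control. *Gstt1* had signals of 4063, 5154 and 4317, *Gstt2* of 4695, 4807 and 5573 and *Gstt3* of 1936, 1975 and 1956. All 3 were slightly higher in both cardio-renal arrays, although *Gstt3* differed by only 0.028 and 0.015. *Gsto1*, an omega-class enzyme that reduces dehydroascorbate, had signals of 4599, 5325 and 3552, higher than the control in array 1 and lower in array 2. Its second probe set gave the same order, at 2117, 2443 and 1766.

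*Mgst1*, the membrane-bound transferase that also reduces lipid hydroperoxides, had signals of 7678, 12444 and 9012. It was highest in array 1 and intermediate in array 2, with log2 differences of 0.69 and 0.23 (mean 0.46 ± 0.33, SD, n = 2; limma standard error 0.23). Its second probe set had signals of only 14.2, 9.005 and 29 and an opposite sign in array 1. *Mgst3*, another membrane enzyme of the family, had signals of 5770, 6025 and 5533, which did not separate the groups.

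**Figure D2:**
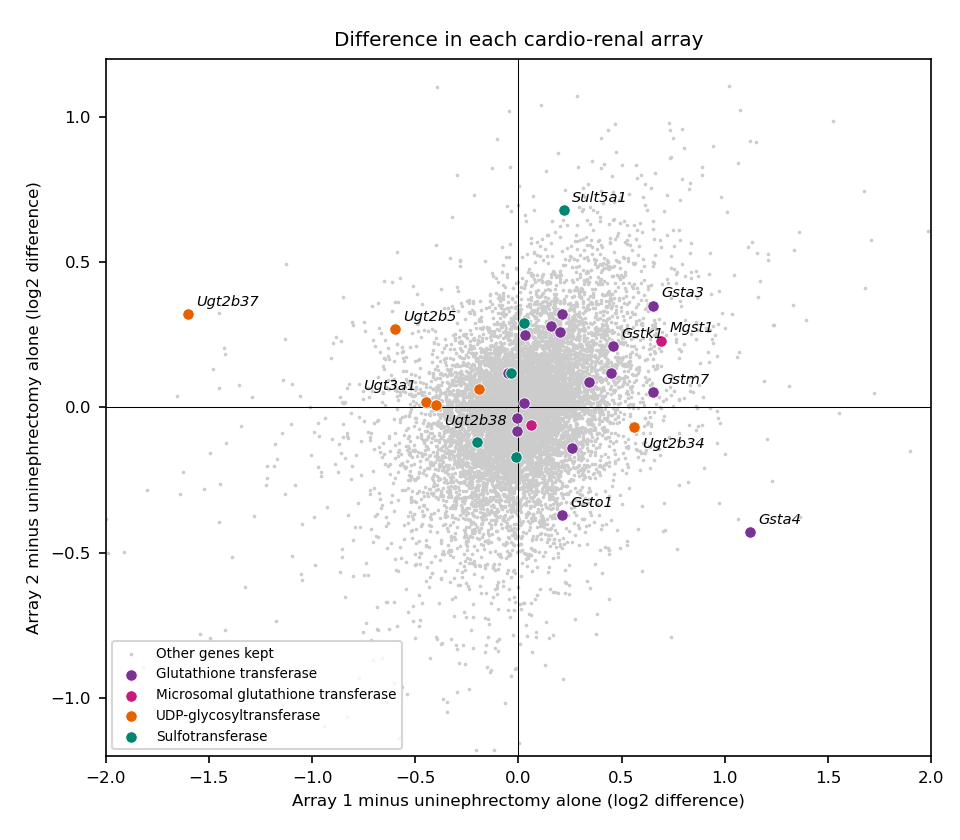
Log2 difference from uninephrectomy alone in cardio-renal array 1 (horizontal) and array 2 (vertical) for the 29 kept genes, coloured by family, over the 11117 other kept genes in grey, of which 45 lie outside the axes. The *Ugt* genes spread along the horizontal axis, with *Ugt2b37* at -1.60 and 0.32, and most *Gst* genes lie in the upper right; both axes share the control array.

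The kept UDP-glycosyltransferase genes had opposite signs in the cardio-renal arrays, but several of them lay close to the control in array 2. Of the 6 kept, 5 were lower than the control in array 1, where 48.4% of all genes were, and 5 were higher in array 2, where 49.3% were. The median difference was -0.42 in array 1 and 0.041 in array 2. In array 2, *Ugt2b38*, *Ugt3a1*, *Ugt3a2* and *Ugt2b34* stood at 0.0096, 0.018, 0.063 and -0.067, and *Ugt2b37* and *Ugt2b5* at 0.32 and 0.27. *Ugt2b37*, a member of the steroid- and bile acid-conjugating Ugt2b group, had signals of 4414, 1440 and 5525. It was low in array 1 only, with log2 differences of -1.60 and 0.32, a mean of -0.64 ± 1.36 (SD, n = 2) and a 3.78-fold gap between the cardio-renal arrays. *Ugt2b37* and *Gsta4* were the 2 of 29 kept genes at least 2-fold apart between the cardio-renal arrays, or 6.9%, against 1.01% of all genes kept. They were also the 2 members at least 2-fold apart from the control in array 1, against 1.11% of all genes, and in array 2 there were 0, against 0.431%.

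Of the 3 other Ugt2b genes kept by the filter, 2 were lower than the control in array 1 and 1 was higher. *Ugt2b5* had signals of 176.3, 106 and 217.9 and log2 differences of -0.60 and 0.27. *Ugt2b38* had signals of 21641, 16445 and 21786, so that array 2 equalled the control within 0.0096 on the log2 scale and array 1 was 0.40 lower. *Ugt2b34* ran the other way, with signals of 1392, 2071 and 1328 and log2 differences of 0.56 and -0.067. Its second probe set, at 1113, 1600 and 1004, had the same order of arrays.

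The promoters of these 4 Ugt2b genes are shown to compare the 3 that were lower in array 1 with the 1 that was higher. All are RefSeq windows of GRCm38.p6 on the minus strand, at chr5:87140291-87140590 for *Ugt2b5*, chr5:87254739-87255038 for *Ugt2b37*, chr5:87424154-87424453 for *Ugt2b38* and chr5:86906888-86907187 for *Ugt2b34*, and capitals mark the longest run of bases common to the first 3.
Ugt2b5: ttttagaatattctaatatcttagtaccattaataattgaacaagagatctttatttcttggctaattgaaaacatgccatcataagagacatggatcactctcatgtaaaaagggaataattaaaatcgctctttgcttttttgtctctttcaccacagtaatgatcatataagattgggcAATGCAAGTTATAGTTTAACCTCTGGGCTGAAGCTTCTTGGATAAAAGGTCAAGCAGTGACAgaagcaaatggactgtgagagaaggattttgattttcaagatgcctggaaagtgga
Ugt2b37: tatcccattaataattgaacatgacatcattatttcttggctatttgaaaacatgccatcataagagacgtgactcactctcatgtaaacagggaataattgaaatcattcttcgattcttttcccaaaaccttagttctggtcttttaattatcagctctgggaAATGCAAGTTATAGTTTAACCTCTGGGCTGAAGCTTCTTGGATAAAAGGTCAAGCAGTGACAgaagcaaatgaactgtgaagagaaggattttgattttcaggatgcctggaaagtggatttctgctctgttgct
Ugt2b38: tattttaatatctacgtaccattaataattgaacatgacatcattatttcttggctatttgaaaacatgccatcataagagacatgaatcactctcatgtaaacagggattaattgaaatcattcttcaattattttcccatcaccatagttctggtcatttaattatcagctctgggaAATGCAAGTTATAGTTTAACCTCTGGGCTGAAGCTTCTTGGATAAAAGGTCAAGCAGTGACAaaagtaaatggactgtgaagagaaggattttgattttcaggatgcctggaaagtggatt
Ugt2b34: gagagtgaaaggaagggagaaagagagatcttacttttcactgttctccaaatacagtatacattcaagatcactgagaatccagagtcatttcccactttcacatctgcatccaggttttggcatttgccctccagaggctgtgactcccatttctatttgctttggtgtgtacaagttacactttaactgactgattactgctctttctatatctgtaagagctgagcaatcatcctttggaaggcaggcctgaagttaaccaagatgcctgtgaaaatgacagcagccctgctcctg
The shared run is 62 bases long. It was defined from the windows of *Ugt2b5*, *Ugt2b37* and *Ugt2b38*, so its presence in these 3 was fixed in advance. In this orientation, no other of the 32851 promoters held it. Whether the run has a part in the array 1 differences was not tested. Over the whole aligned window, *Ugt2b37* was 87.3% identical to *Ugt2b38* and 76.5% identical to *Ugt2b5*, and *Ugt2b5* was 84.2% identical to *Ugt2b38*. *Ugt2b34* was 50.1 to 55.3% identical to the other three, beside a median of 49.2% over all 820 pairs of member promoters. None of the 4 motifs named above was found in these 4 windows. The 3 similar genes are copies of each other, and whether their probe sets separate their transcripts was not tested.

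The Ugt2 genes stand in 1 cluster on chromosome 5 with *Sult1b1*, *Sult1d1* and *Sult1e1*. In the order of the chromosome *Ugt2b34* comes first, followed by *Ugt2b1*, *Ugt2b35*, *Ugt2b36*, *Ugt2b5*, *Ugt2b37*, *Ugt2a3* and *Ugt2b38*, and the 3 sulfotransferase genes come last. The members lower in array 1 by more than 0.3 on the log2 scale, *Ugt2b5*, *Ugt2b37* and *Ugt2b38*, lie together apart from *Ugt2a3*, which was below the filter with signals of 85.8, 74.9 and 74.6. *Sult1b1* and *Sult1d1*, beyond them, differed from the control by -0.20 and -0.038 in array 1.

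**Figure D3:**
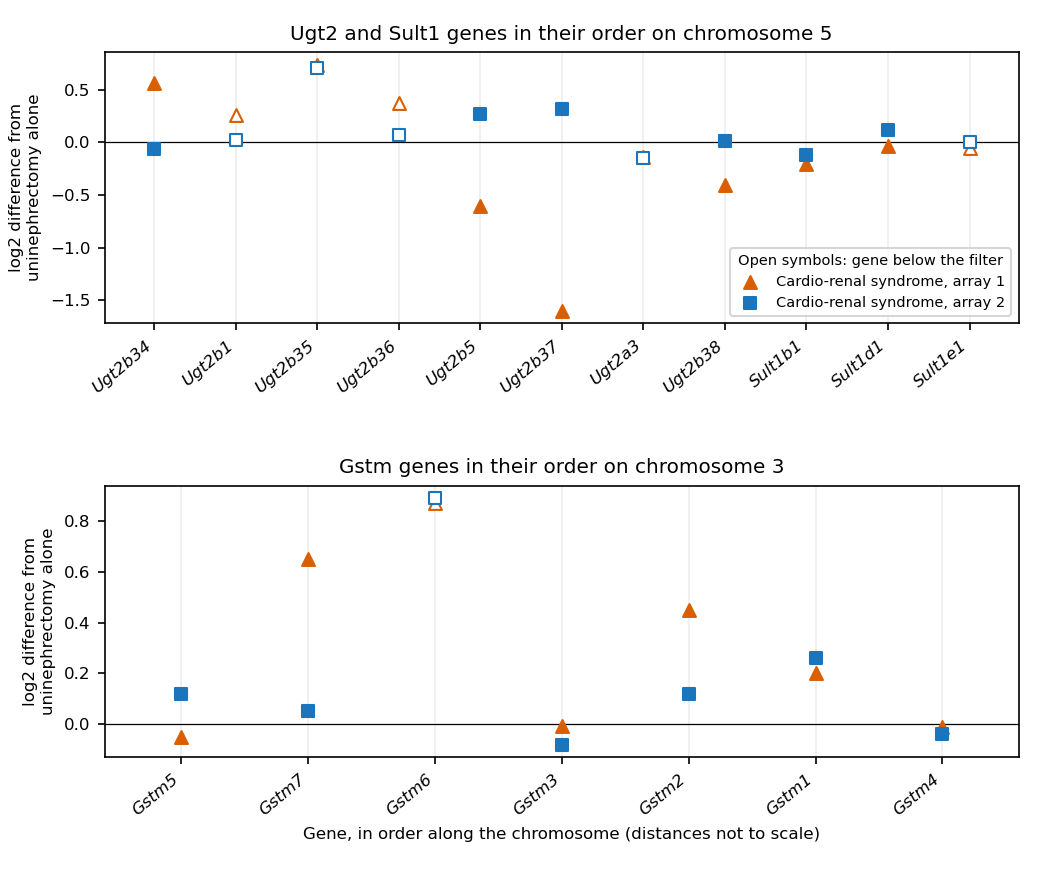
Log2 difference from uninephrectomy alone in cardio-renal array 1 (triangles) and array 2 (squares) for members in their order on chromosome 5 (top) and chromosome 3 (bottom), with open symbols for genes below the filter and distances not to scale. *Ugt2b37* stands at -1.60 in array 1, next to *Ugt2b5* at -0.60, while *Ugt2b34* at the other end stands at 0.56.

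Both Ugt3 genes were lower than the control in array 1 and slightly higher in array 2. *Ugt3a1* had signals of 7224, 5266 and 7315, with log2 differences of -0.45 and 0.018, and its second probe set had 6314, 4952 and 7033. *Ugt3a2*, its neighbour on chromosome 15, had signals of 17105, 14990 and 17872, with log2 differences of -0.19 and 0.063. Array 1 was the lowest of the 3 arrays for both genes. The Ugt1a genes, which share their last exons, are not among the 46 because their 3 probe sets each carry 8 symbols. These probe sets had signals of 20042, 19454 and 21706, of 12626, 15254 and 14291, and of 9996, 14526 and 11538. Array 1 was the lowest for the first only. For the last 2, both cardio-renal arrays were higher than the control, unlike the kept genes of the family. Their log2 differences were 0.27 and 0.18, and 0.54 and 0.21.

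The sulfotransferases showed the smallest spread of the 3 families, with a median gap between the cardio-renal arrays of 0.16 on the log2 scale, against 0.55 for the UDP-glycosyltransferases, 0.23 for the glutathione transferases with the microsomal ones and 0.16 for all genes kept. *Sult1d1*, which sulfates catecholamines, had signals of 19765, 19252 and 21444. Its second probe set, at 6947, 7497 and 7722, was higher than the control in both cardio-renal arrays. *Sult1c2* had signals of 3407, 3379 and 3020, and array 1 lay within 0.012 of the control. *Sult1a1*, the phenol sulfotransferase, had signals of 628.4, 639.7 and 775.1, with array 2 the highest. *Sult1b1*, which acts on thyroid hormones, had signals of 205.4, 175.5 and 186.7 and was on average -0.16 ± 0.055 (SD, n = 2) from the control. The first 3 of these genes lay close to the control in array 1. *Sult5a1* had signals of 106.4, 128.5 and 187.7, near the array median of all probe sets, with log2 differences of 0.22 and 0.68.

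The other 17 members were below the filter, and no difference is read from them. Their signals ran from 1.181 to 85.79 over the 3 arrays, all under the array medians. They were *Gstm6*, *Gsto2*, *Gstp3*, *Gstt4* and *Mgst2* among the glutathione transferases, *Ugt2a3*, *Ugt2b1*, *Ugt2b35* and *Ugt2b36* among the UDP-glycosyltransferases, and 8 sulfotransferases. The 8 were *Sult1c1*, the oestrogen sulfotransferase *Sult1e1*, the hydroxysteroid sulfotransferases *Sult2a2*, *Sult2a8* and *Sult2b1*, and *Sult3a1*, *Sult4a1* and *Sult6b1*. *Sult1e1* had signals of 2.286, 1.181 and 2.313, and *Gsto2* had 64.63, 83.21 and 59.02.

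**Figure D4:**
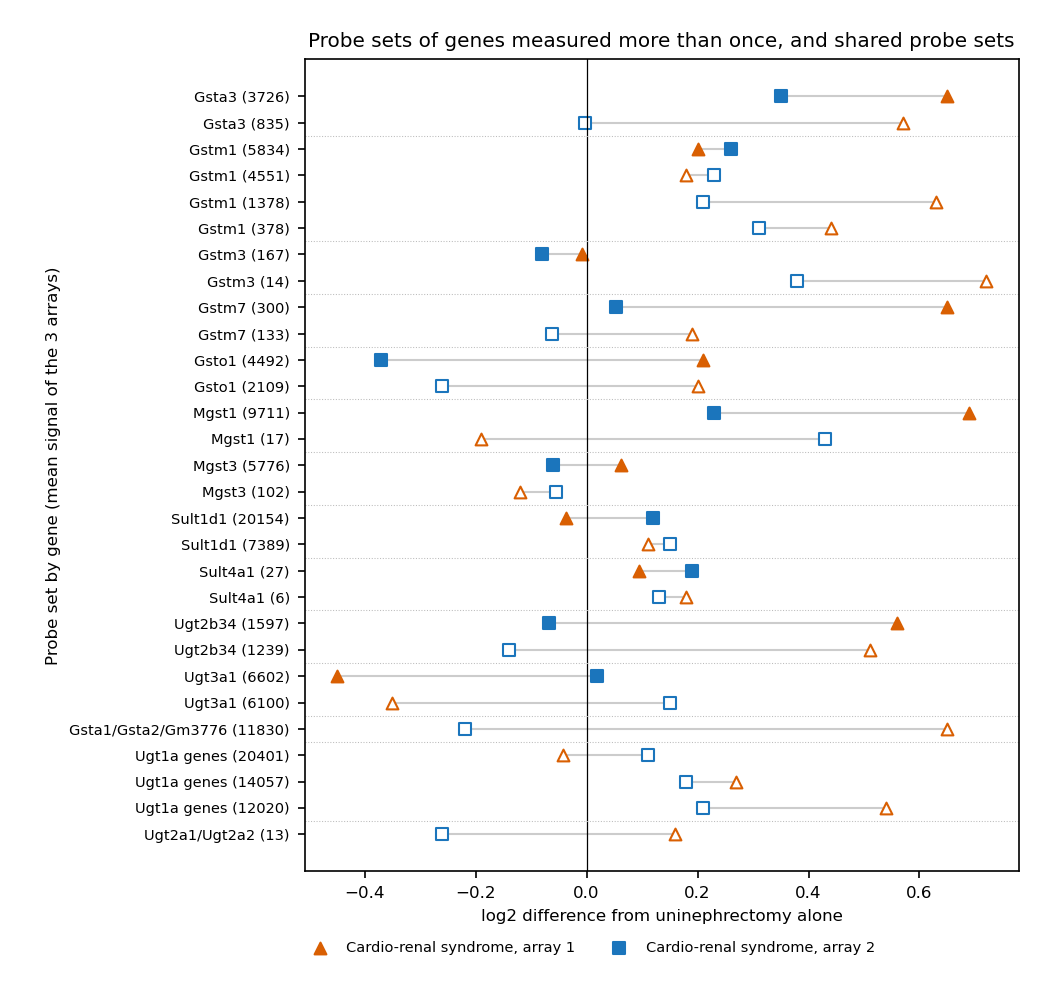
Log2 difference from uninephrectomy alone in cardio-renal array 1 (triangles) and array 2 (squares) for each probe set of the 11 members with more than 1, and for the 5 probe sets of several symbols, with the mean signal in brackets and filled symbols for the probe set used. The 2 probe sets of *Gsto1*, *Ugt2b34* and *Ugt3a1* lie close together, whereas those of *Mgst1*, *Gstm3* and *Mgst3* differ where the second one is dim. Brighter second probe sets differ too, for *Gsta3* in array 2 (0.35 used, -0.0031 second) and for *Sult1d1* in array 1 (-0.038 used, 0.11 second).

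The genes that feed the 3 reactions were examined in lists named for their roles. Beside the counts of genes above or below the control in both arrays stand 30.6% and 29.8% of all genes kept, and nothing particular to a list is read from its counts. Of 13 kept genes for glutathione supply and recycling, 11 were lower than the control in array 1, where 48.4% of all genes were, and 10 were higher in array 2, where 49.3% were, with medians of -0.28 and 0.052. *Gclc*, the catalytic subunit of the rate-limiting ligase of glutathione synthesis, had signals of 6458, 5414 and 6067, and *Gclm*, its modifier subunit, of 10394, 7240 and 11246. *Chac1*, which degrades glutathione, had signals of 220.1, 96.3 and 162.7 and stood at -0.69 ± 0.43 (SD, n = 2). *Chac2*, on the same list, went the other way, with signals of 3675, 4032 and 4132 and log2 differences of 0.13 and 0.17. The median of the glutathione transferases in array 1 was 0.21. Of 8 genes of the mercapturate pathway, which trims glutathione conjugates, 3 lay above the control in both arrays and 2 below; *Anpep*, an aminopeptidase of the brush border, had signals of 293.4, 118.3 and 233.5, and *Slc7a9*, a cystine transporter subunit, had 7379, 8712 and 8289.

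For glucuronidation, UDP-glucuronate supply and glucuronide hydrolysis had 10 kept genes, of which 4 lay above the control in both arrays and 3 below. *Ugdh*, the dehydrogenase that makes UDP-glucuronate, had signals of 4045, 4955 and 4763, on average 0.26 ± 0.04 (SD, n = 2) above the control on the log2 scale. *Gusb*, the lysosomal glucuronidase, had signals of 1124, 818.5 and 989.8, a mean of -0.31 ± 0.19. These 2 genes lay on opposite sides of the control in both arrays. For sulfation, 2 of 12 kept genes lay above the control in both arrays and 5 below. The 4 named by the rule were all among the 5, with *Slc13a1*, the sulfate transporter, at 11820, 9827 and 10775 and *Arsa*, arylsulfatase A, at 672.2, 573 and 631. *Papss1*, a PAPS synthase, had signals of 3747, 2657 and 3335 (mean -0.33 ± 0.23), and *Slc35b2*, the Golgi PAPS transporter, 603.4, 461.6 and 515.8 (mean -0.29 ± 0.11).

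Conjugate transport had 9 kept genes, 3 above the control in both arrays and 2 below. *Abcc6* had signals of 93.3, 147.5 and 145.6, and *Slco4c1*, a basolateral organic anion carrier, had 1224, 1921 and 1428. *Abcc4*, an efflux pump for conjugated steroids, had 1491, 4986 and 1543, and the anion transporter *Slc22a7* had 3985, 459.6 and 3124. The last 2, like *Gsta4* and *Ugt2b37*, differed mainly in array 1. Among 11 kept regulators, 4 lay above the control in both arrays and 5 below; *Nfe2l2*, which encodes NRF2, had 3893, 4890 and 3869, *Ppara* 1611, 2099 and 1960, and the xenobiotic receptor *Nr1i2* 140.7, 94.7 and 105.4. Of 12 kept NRF2 targets outside these families, *Gclc* and *Gclm* among them, 3 lay above the control in both arrays and 2 below. *Nqo1*, a quinone reductase, had signals of 982.1, 1516 and 1249 (mean 0.48 ± 0.19, SD, n = 2), and *Hmox1*, haem oxygenase, had 618.6, 376.5 and 559.7. None of the genes in these 7 lists passed limma's adjusted p, which rounded to 1 for each kept gene.

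**Figure D5:**
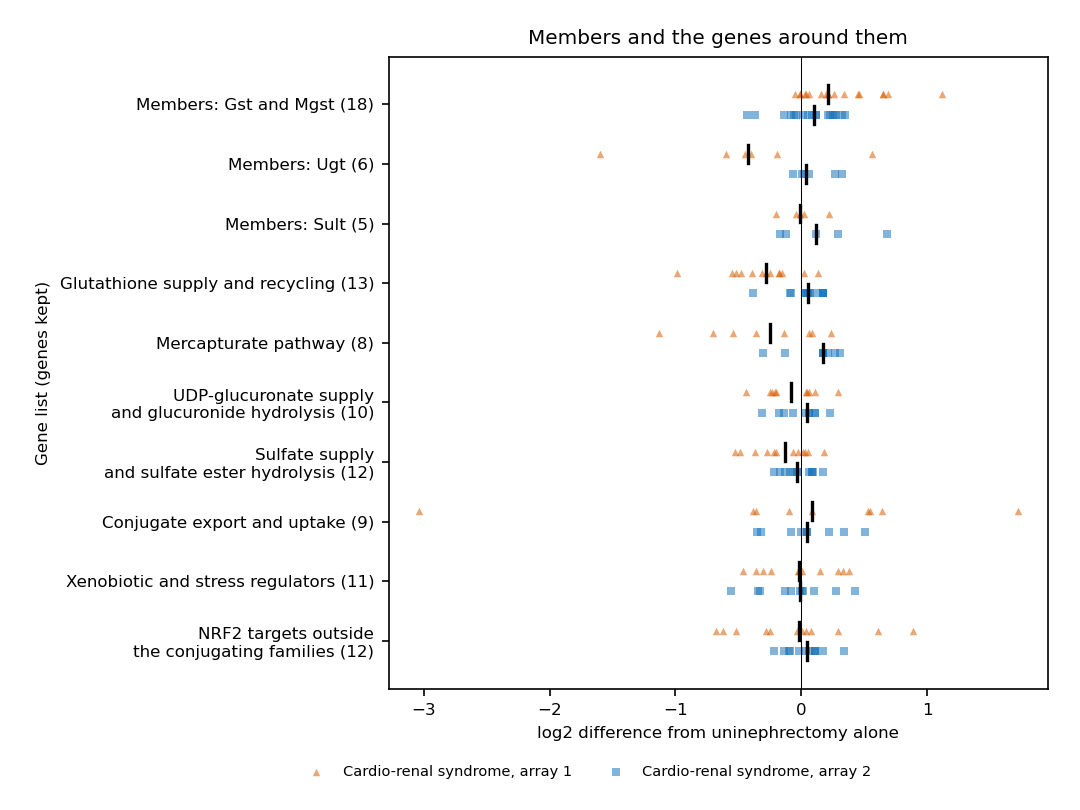
Log2 difference from uninephrectomy alone of each kept gene in cardio-renal array 1 (triangles) and array 2 (squares), for the 3 member families and the 7 lists around them; black bars are medians. In array 1 the median is 0.21 for *Gst* with *Mgst*, -0.42 for *Ugt* and -0.28 for glutathione supply, and in array 2 the medians of all 10 groups lie between -0.032 and 0.17.

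Genes with known sex bias in mouse kidney also differed between the cardio-renal arrays. Of 15 male-biased genes, 14 were lower than the control in array 1, against 48.4% of all genes, and 4 in array 2, against 50.7%, with medians of -0.88 and 0.056. The exception in array 1 was *Hao2*, with signals of 9207, 18442 and 11147, higher than the control in both cardio-renal arrays. At least 2-fold apart between the cardio-renal arrays were 7 of the 15, against 1.01% of all genes. The list was chosen with earlier results of these data known, so its counts are not independent of the data. Summed over the 15, the signal was 212106 for the control, 140543 for array 1 and 223406 for array 2. Of 7 kept female-biased genes, 3 were higher and 4 lower in array 1. The amino acid transporter gene *Slc7a12* had signals of 213.4, 6011 and 695.2, and *Akr1c18*, which encodes a progesterone-reducing enzyme, had 1246, 20.83 and 491.9. Both lay over 2-fold from the control in both cardio-renal arrays, in opposite directions and further in array 1. *Abcc4* and *Slc22a7* are on this list too. The summed signals of the 7 were 12912, 20437 and 12893, and *Slc7a12* had the largest difference among the genes that were higher in array 1. In array 1 the median of the Ugt genes was -0.42, and the part of the sex-biased genes' difference in it was not tested. Without array 1, the members at least 2-fold apart from the control numbered 0, and *Gsta4* and *Ugt2b37* stood at -0.43 and 0.32.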

How the data were processed

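Kidney RNA was measured on 3 single-colour Affymetrix arrays, 1 for uninephrectomy alone and 2 for cardio-renal syndrome. The deposited intensities are linear MAS5 signals, MAS5 being named in the submitters' processing notes and its version not given in the sources used here; each array's 2% trimmed mean was 500. RNA was labelled from 250 ng with a 3' kit, per the labels' protocols. The values carry no detection calls, MAS5 is noisy for dim probe sets, and the number of arrays limits the precision.

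Symbols came from the platform annotation, and non-member symbols were updated through Entrez IDs in a RefSeq table (GRCm38.p6), which held all 46 members. Of 45101 probe sets, 34945 had 1 symbol. For each gene the probe set of highest mean signal was used. Values were turned into log2(signal + 28.8), where 28.8 is the 25th percentile of an array's signals (median of the 3 arrays), and genes were kept at a mean of 7.01 or more. limma 3.58.1 (R 4.3.3) was fitted over all 3 arrays with a mean-variance trend, two-sided, with Benjamini-Hochberg adjustment at 0.05 over the 11146 kept genes. The fit was tried on simulated data with changes of 3 on the log2 scale, larger than the difference of any member. Recovery of smaller changes was not tested. Since nothing says that the arrays come from separate mice, p-values reflect just the spread of these samples, which may be technical. The genes named are the 10 members furthest from the control in 1 direction in both arrays, the 10 with the largest gap between the cardio-renal arrays and the 3 brightest per family; other members were named to complete their class. Up to 4 genes per list were named by the first criterion, and *Gclm*, *Nfe2l2*, *Abcc4* and the markers were chosen after their values were seen. Members and lists were chosen with earlier results of these data known. Alternatives changed the offset, the filter, the normalization, the probe set, limma's options and the arrays used.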

Additional observations from a re-analysis of the deposited data

How the results depend on the processing

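Of the 29 kept genes, and of all genes kept, 0 passed limma's adjusted p under every alternative in which limma was run. No named member's mean difference changed sign under the alternatives that kept both cardio-renal arrays, over 152 values for 23 genes, but 10 of the 23 had opposite signs in the cardio-renal arrays. Many of the 152 values could not change. A filter alters which genes are kept and not their differences, and a gene with 1 probe set has the same difference under the probe set alternatives. The count lower in both arrays, 4, was 8 with no filter and 1 with a filter at the upper quartile. The median difference of the members, 0.06, was 0.14 with the upper-quartile filter, 0.13 with quantile normalization, 0.11 with the mean of all probe sets and 0.036 without shared-sequence probe sets. When 1 cardio-renal array was left out, the members higher than the control numbered 18 to 20, those lower 9 to 11, those at least 2-fold higher 0 to 1 and those at least 2-fold lower 0 to 1, and the median was 0.062 to 0.087. These counts then rest on 1 array, which is why they exceed the counts of 13 and 4 for both arrays. Quantile normalization moved *Ugt3a1* to lower in both arrays (-0.42 and -0.0017), *Sult1c2* to opposite signs, and *Sult1d1* (0.14 and 0.081) and *Gstm5* to higher in both, and the cause was not tested. The mean of all probe sets moved *Gstm7* to opposite signs, *Mgst3* to lower in both and *Sult1d1* to higher in both. limma could not be fitted without a cardio-renal array, since no residual degree of freedom remains. No paired analysis was possible because the labels give no replicate numbers and there is 1 control array.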
